A study of Drosophila melanogaster with 2 samples.

Results

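The germline and piRNA pathway genes vas, nos, bam, bgcn, gcl, aub, piwi, AGO3, tud and spn-E were examined in a map of the GFP-tagged homeodomain protein B-H2 on embryonic chromatin. These 10 genes, of 13968 annotated protein-coding genes on the assembled chromosome arms, were chosen by symbol, and measured values had no part in the rule. Ensembl lists nos as nanos, which was found through a RefSeq synonym and is not the nitric oxide synthase gene Nos. The assay was ChIP-seq (sequencing of the DNA that an antibody recovers with a chromatin protein), on whole embryos of Drosophila melanogaster at 6 to 22 hours, pooled males and females of a transgenic line with a stable fusion of GFP to the C terminus of B-H2. There was a single group, B-H2-GFP embryo, with 2 biological replicates numbered 1 and 3, and no second condition. The labels name transcription factor ChIP-seq and a B-H2 antibody, whereas the free-text description of each sample speaks of an input control. The values are reported under the assay label, and that conflict was not settled. Each replicate had 30000 permissive peaks, as did the pool of both, and the strongest 14.3% of the pooled peaks formed the authors' optimal set under the irreproducible discovery rate (IDR), which scores whether a peak holds its rank from replicate to replicate. The permissive lists are labelled as peaks and background together, so an entry outside the IDR set need not be a bound site. The lists give no read counts, so depth is unknown.

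Germ cells of the fly are set aside at the posterior pole of the egg, in cytoplasm that holds the products of nos, gcl, vas and tud, and later migrate to the gonads. There bam and bgcn drive stem cell daughters into differentiation. In the germline, Piwi-family proteins (Aub, Ago3 and Piwi) carry small RNAs called piRNAs that match transposons. Aub and Ago3 cleave transposon RNA and amplify piRNAs in the perinuclear nuage, with the help of Vas, Spn-E and Tudor-domain proteins, while Piwi silences transposons in the nucleus. Germ cells are a small part of a whole embryo, and a peak from whole embryos does not tell which cells it came from. The peak lists hold no expression values, so germ cells could not be checked by their markers.

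IDR peaks lay in reach of most of these genes, and the majority were nearest to the start site of another gene, as was also the case over all genes. With a summit in the gene body or within 5 kb of a transcription start site (TSS), 8 of the 10 genes had at least 1 IDR peak, against 44.7% of all protein-coding genes. AGO3 and spn-E had none. The 8 genes held 14 IDR summits in all, from 1 to 3 each. Of the 14, 3 had the TSS of the germline gene nearest, at bam, at bgcn and, tied with solo, at vas. The other 11 were nearest to another protein-coding gene. Over all 10980 pairs of a protein-coding gene and an IDR summit in the same reach, another gene was nearest in 62.2%. Another protein-coding TSS lay within 100 bp of 10 of the 14 summits, the tied vas summit and 9 of the 11, against 36.5% of all such pairs. Within 1 kb of a TSS, 5 of the 10 genes had an IDR summit (vas, nos, bam, bgcn and gcl), against 26.9% of all genes. When a summit was given only to the gene with the nearest TSS within 1 kb, 3 of the 10 had an IDR peak, against 19.5% of all genes. A pooled summit of any strength lay within 1 kb of 8 of the 10, against 57.3% of all genes. Within 500 bp there was one at only 5 of the 10, against 52.2%. As the pooled list includes background, such a summit alone does not mark a bound promoter. Of the 8, aub and piwi had summits with deposited −log10 q-values of only 0.609 and 0.673. No test of the list was made, since it was proposed with results of these data known.

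The promoter of vas, which encodes a DEAD-box RNA helicase of the germ plasm and nuage, held an IDR peak just upstream of the TSS. The gene (FBgn0283442, chr2L:15061656-15074311, plus strand) shares its start base with solo, a gene for chromosome cohesion in meiosis, so the peak cannot be given to either. The summit lay 71 bp upstream of both starts, and 828 bp from the TSS of TfIIS, which encodes a transcription elongation factor. Peak signal is on the scale of the authors' caller and is compared only within a list. The vas peak had a pooled signal of 154 and pooled rank 2484. It had rank 1329 in replicate 1 (signal 101) and rank 5635 in replicate 3 (signal 54.0). Counting down each replicate list for as many peaks as the IDR set holds, it was well inside in replicate 1 and outside in replicate 3. The ratio of its rank in replicate 3 to that in replicate 1 was 4.24, and 97.4% of the IDR peaks found in both replicate lists had a lower ratio. The promoter IDR peaks of nos and bgcn leaned the other way, with ratios of 0.334 and 0.327. Lower ratios than these were found for 7.57% and 7.17%. For bam and gcl the ratios were 1.3 and 1.18. Of all IDR peaks found in both replicate lists, 15.6% ranked beyond that length in replicate 3 and 17% in replicate 1. Each rank is that of the overlapping replicate peak with the nearest summit, even where a stronger one also overlaps. These shares may therefore be too high, and some rank ratios too far apart.

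The bases around this summit are shown because the vas window was the only one of the 5 promoter IDR windows with any of 8 short sites searched on both strands within 50 bp. Of these sites, TATCGA is part of the site of the promoter factors DREF and BEAF-32, and GGTCAC is part of that of M1BP. The homeodomain-type sites were TAATTG and, as further forms that proteins of this class are known to bind, TAAACG as well as the palindrome TAATTA and its relative TAATTT in the same search. GAGAGA is the site of GAGA factor, and the site of the early embryonic factor Zelda was searched as CAGGTA in the same way. The window is chr2L:15061535-15061635 (dm6, plus strand), printed 5′ to 3′ with the sites in capitals.
vas promoter summit: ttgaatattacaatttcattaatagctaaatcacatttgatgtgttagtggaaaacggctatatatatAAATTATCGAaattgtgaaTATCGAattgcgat
TATCGA occurs here with its first base 49 and 34 bp upstream of the TSS. The first copy overlaps TAATTT, read on the opposite strand. TATCGA was present in 15.7% of the 3098 IDR windows within 1 kb of a TSS and TAATTT in 19.7%, and at least 1 of the 8 sites in 52.8%. A match is a description of the letters only.

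Inside vas, the stronger IDR peak lay at the start of another gene. Its summit was 6414 bp into vas, in an intron, and 8 bp from the TSS of vig, a gene on the opposite strand named for its place in a vas intron. This peak had a pooled signal of 293 and pooled rank 700. It ranked 913 in replicate 1 and 647 in replicate 3, with summits 9 bp apart, so both replicates placed it high. A peak 861 bp upstream of vas, 38 bp from the TSS of TfIIS, had a pooled signal of 103 and rank 4835, just outside the IDR list. The other pooled peaks in reach of vas had signals from 30.5 to 75.7.

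Both replicates held a peak at the spn-E promoter that the pooled list lacked. Spn-E is an RNA helicase with a Tudor domain, needed for piRNA amplification (FBgn0003483, chr3R:15837419-15844415, plus strand). In replicate 1 a summit 223 bp upstream of the TSS ranked 4308 (signal 54.9). In replicate 3 a summit 171 bp upstream ranked 4611 (signal 61.1). Neither overlapped any pooled peak. Such absences were uncommon: 3509 peaks in the first 5000 of replicate 1 overlapped one in the first 5000 of replicate 3, and 31 overlapping pairs of such ranks had no pooled peak on either side. The cause was not tested. Both summits were nearer to the TSS of ND-23, a gene for a subunit of respiratory complex I that starts 302 bp upstream of spn-E and runs the other way (79 bp in replicate 1 and 131 bp in replicate 3). Replicate 1 had another, weaker summit 24 bp upstream of spn-E, at rank 9467. The pooled list held 1 peak in reach of spn-E, with a signal of 109 and rank 4469, short of the lowest IDR signal of 112. Its summit was 2097 bp into spn-E and 1 bp from the TSS of Pbp45, a gene inside spn-E on the opposite strand that encodes a subunit of the small nuclear RNA activating complex. It ranked 6940 in replicate 1 and 4130 in replicate 3.

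The spn-E window is shown because the pooled list has no peak for it; it held none of the 8 sites. The replicate 1 window, chr3R:15837146-15837246 (plus strand), had 18.8% GC, against a median of 39.6% over the IDR windows at promoters.
spn-E promoter summit of replicate 1: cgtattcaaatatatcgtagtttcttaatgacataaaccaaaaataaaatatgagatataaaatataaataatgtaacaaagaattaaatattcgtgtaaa

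The Piwi-family genes had weak peaks or none at their own promoters. For aub (FBgn0000146, chr2L:10997819-11001476, minus strand), whose protein binds piRNAs and cleaves transposon RNA in the nuage, the pooled peak nearest to a TSS lay 503 bp upstream with a signal of 35.5 and rank 19675. It was 93 bp from the TSS of lectin-33A, on the opposite strand. It overlapped a replicate 1 peak of rank 6237 and no peak of replicate 3. The 1 IDR peak in reach of aub lay 2668 bp upstream, 9 bp from the TSS of the ribosomal protein gene RpL9, with a pooled signal of 274 and rank 814. The TSS of Nup154 was 676 bp from this summit. The peak ranked 1744 in replicate 1 and 584 in replicate 3. The peak in aub's reach that both replicates held among their strong peaks was therefore the one at RpL9.

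For piwi (FBgn0004872, chr2L:10982205-10987420, minus strand), whose protein acts in the nucleus of germline and somatic gonad cells, the promoter peak was also weak. Its summit was 224 bp upstream of piwi and 162 bp from the TSS of CG12253, which runs the other way. It had a pooled signal of 37.1 and rank 18724, and overlapped a replicate 3 peak of rank 10070 and no peak of replicate 1. The 1 IDR peak in reach lay 1944 bp upstream of piwi and 37 bp from the TSS of TTLL4A, a gene of the tubulin tyrosine ligase-like family. Its pooled signal was 122 (rank 3692), with rank 3528 in replicate 1 and 5132 in replicate 3. Both genes thus lacked an IDR peak within 1 kb.

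The windows at these 2 weak summits are shown because each held homeodomain-type sites. The deposited −log10 q-value was 0.609 at aub and 0.673 at piwi, against 4.09 at the vas promoter IDR peak. With a match in 1 replicate only for each, the sites do not show that B-H2 was bound there. The vas window also held a homeodomain-type site, whereas the windows at nos, bam, bgcn and gcl and at the weak tud summit held none. These windows differ in base composition. GC was 55.4% at nos and at tud and 52.5% at bgcn, but 28.7% at bam, 24.8% at gcl and 25.7% at vas. The aub and piwi windows are read on the minus strand, in the direction of the gene, with the sites in capitals. They lie at chr2L:11001929-11002029 for aub and chr2L:10987594-10987694 for piwi.
aub promoter summit: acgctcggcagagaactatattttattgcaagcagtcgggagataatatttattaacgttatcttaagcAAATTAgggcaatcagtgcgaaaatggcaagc
piwi promoter summit: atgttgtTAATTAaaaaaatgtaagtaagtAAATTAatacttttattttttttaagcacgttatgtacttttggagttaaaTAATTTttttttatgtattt
The aub window had 1 copy of TAATTT, read on the opposite strand, and the piwi window had TAATTA once and TAATTT once on each strand. The piwi window had 15.8% GC and the aub window 38.6%. Among the 9270 pooled windows within 1 kb of a TSS and outside the IDR list, 14.9% held TAATTT and 5.42% TAATTA. Among the 3098 IDR windows within 1 kb of a TSS, the shares were higher, at 19.7% and 7.36%.

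AGO3, the partner of Aub in piRNA amplification, had no pooled peak at all (FBgn0250816, chr3L:23554593-23689640, plus strand). It is the longest of the 10 genes, at 135 kb, against a median of 2164 bp over all protein-coding genes. Nor was there a pooled summit in the 200 kb on either side. The nearest pooled summit lay 215 kb before its start, and the nearest beyond its end was 339 kb away. Pooled summits averaged 23.1 per 100 kb over the whole arm 3L. The 535 kb of AGO3 and its flanks held 0, so the lack was one of the region and not particular to AGO3. Its cause was not tested. The nearest IDR summit was 459 kb before the start of AGO3 and 3580 kb past its end. A single replicate 1 peak of low rank (22852, signal 17.8) lay in an intron 130415 bp from the nearest AGO3 TSS, and replicate 3 had no peak in reach.

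At tud, whose product is the founding Tudor-domain protein and a scaffold of germ plasm and nuage, no IDR peak lay within 1 kb (FBgn0003891, chr2R:21183322-21192913, plus strand). The nearest pooled peak was 561 bp upstream, with a signal of 70.4 and rank 8440. Of the protein-coding starts, that of tud was the nearest, but the summit was 12 bp from the start of tRNA:Trp-CCA-2-6 and 95 bp from that of tRNA:Gly-GCC-1-13. This peak ranked 4627 in replicate 1 and 15754 in replicate 3, so it was high in the first list only. Both IDR peaks in reach lay in or at Pu, the upstream neighbour that encodes GTP cyclohydrolase. The first was 4256 bp upstream of tud, 52 bp from a TSS of Pu and 430 bp from that of CG4286. It had a pooled signal of 124 and rank 3592. Replicate 1 had 2 peaks under it, of ranks 3655 and 23441, and replicate 3 had a peak of rank 2951. The second, 2471 bp upstream and inside a Pu intron, had a signal of 113 and rank 4178, close to the lowest in the IDR list. It was 433 bp from the start of tRNA:Trp-CCA-2-5, and it overlapped 2 peaks in each replicate, of ranks 2859 and 7474 in replicate 1 and of ranks 4219 and 25651 in replicate 3.

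The gcl promoter had the strongest peak of the 5 genes with a promoter IDR peak. Germ cell-less is a nuclear envelope-associated protein needed for primordial germ cells to form (FBgn0005695, chr2R:8724258-8728999, plus strand). The summit lay 262 bp upstream of gcl, between it and CG14767, which runs the other way and has a TSS 157 bp from the summit. The pooled signal was 284 and the rank 752, with rank 748 in replicate 1, rank 882 in replicate 3, and replicate summits 6 bp apart. The replicates placed this peak nearly alike in position and rank. A weaker pooled peak 62 bp upstream of gcl, nearer to gcl than to any other start, had a signal of 77.1 and rank 7489. The summits of 5 further pooled peaks lay inside gcl, all in introns and with signals from 25.2 to 65.5. The strongest of these, 505 bp into gcl, was 142 bp from the start of snoRNA:gcl-a and had a deposited −log10 q-value of 2.23. The rest had values from 0.262 to 0.792.

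The nos promoter peak was nearer to a neighbour than to nos. The Nanos protein is a translational repressor that patterns the posterior of the embryo and keeps germ cells from somatic fates (FBgn0002962, chr3R:19157238-19160202, plus strand). The summit was 365 bp upstream of nos and 61 bp from a TSS of CG11779, a gene on the opposite strand with start sites 221 and 426 bp upstream of nos. The summit lay between these start sites, in a 5′ UTR of CG11779. It had a pooled signal of 276 and rank 796, rank 1637 in replicate 1 and rank 546 in replicate 3, with summits 30 bp apart. Another IDR peak, of signal 121 and rank 3751, lay 3577 bp upstream of nos and 25 bp from the TSS of CG5835. It ranked 4268 in replicate 1 and 3380 in replicate 3. The only pooled summit nearest to nos itself was 989 bp downstream of its TSS, in an intron, with a signal of 33.7 and rank 20945. That peak overlapped a replicate 3 peak of rank 18252 and no peak of replicate 1. Its deposited −log10 q-value was 0.535.

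At bam, the switch gene for germline stem cell differentiation, an IDR peak had no other start site within 1 kb (FBgn0000158, chr3R:25243039-25245109, minus strand). The summit was 547 bp upstream of bam, in intergenic sequence. The pooled signal was 183 and the rank 1845, with rank 1852 in replicate 1 and 2411 in replicate 3 and summits 27 bp apart. Replicate 3 had an additional summit 722 bp upstream, of rank 6998. A far stronger peak stood next to it: 2402 bp upstream of bam and 3 bp from the TSS of the ribosomal protein gene RpS27, with a signal of 1248 and rank 23, ranked 75 in replicate 1 and 13 in replicate 3. The start of Nup37, a nuclear pore gene, was 147 bp from that summit, and that of the non-coding sisRNA:CR46364 was 89 bp away. Another IDR peak, 4167 bp upstream and 72 bp from the TSS of the nuclear pore gene Nup358, had a signal of 177 and rank 1945. The bam window is shown because no other coding start lies within 1 kb of this peak and its bases lie outside any UTR. It spans chr3R:25245606-25245706 and is printed on the minus strand, with 28.7% GC and none of the 8 sites.
bam upstream summit: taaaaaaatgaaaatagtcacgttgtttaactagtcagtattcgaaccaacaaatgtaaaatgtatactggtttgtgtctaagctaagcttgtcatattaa

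The partner of bam, bgcn, had the only IDR summit among the 14 in the 5′ UTR of a germline gene of the list. Bgcn is related to DExH-box helicases and acts with Bam as a translational repressor (FBgn0004581, chr2R:23853270-23858921, minus strand). The summit was 132 bp downstream of the TSS, with no other protein-coding start within 1 kb. The pooled signal was 279 and the rank 781. The peak ranked 1544 in replicate 1 and 505 in replicate 3, with summits 25 bp apart. A second IDR peak, 1945 bp into bgcn, was 40 bp from the TSS of Pym, a gene inside bgcn for a protein that removes exon junction complexes. It had a signal of 135 and rank 3114, rank 5983 in replicate 1 and 2387 in replicate 3.

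Among all genes with a promoter IDR peak, gcl, bgcn and nos lay above the median signal, and bam and vas below it. The median gene with such a peak had a strongest promoter signal of 191. The share of those genes with a lower signal was 75.2% for gcl, 74.2% for bgcn, 73.7% for nos, 45.8% for bam and 31% for vas. The strongest promoter IDR peak was also within 1 kb of another protein-coding TSS at 3 of the 5 (vas, nos and gcl), against 62% over all such genes. Another gene's TSS was nearer at 2 of the 5 (nos and gcl), against 30.6%. All 5 overlapped a peak in both replicate lists, as did 98.5% over all genes. Inside a germline gene of the list and over 1 kb from its TSS there were 2 IDR summits, at vig in vas and at Pym in bgcn, and both were within 100 bp of the nested gene's TSS. Over all genes, 17.6% of the 1090 pairs of a gene and such an internal IDR summit lay within 1 kb of another coding TSS, and 6.42% within 100 bp.

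**Figure D1:**
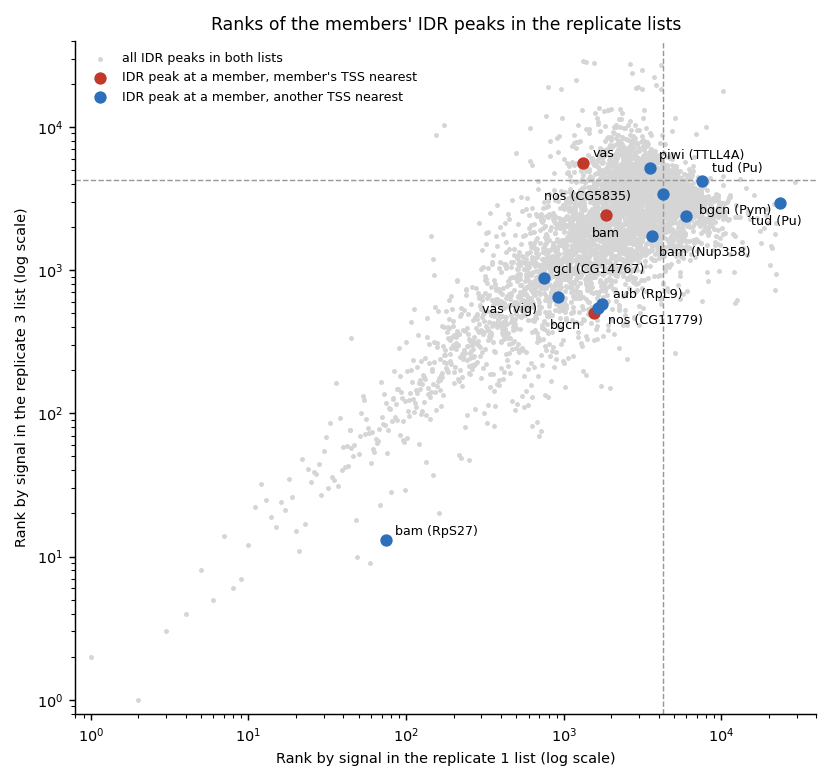
Rank by signal in the replicate 1 list (x axis) against rank in the replicate 3 list (y axis), both log scales, for all IDR peaks found in both lists (grey) and the 14 at germline and piRNA genes, red where the gene's own TSS was nearest and blue where another was. Names in brackets give the gene with the nearest TSS where it is another gene, replicate peaks were matched by the nearest summit among those overlapping, and dashed lines mark the rank equal to the length of the IDR list. The vas promoter peak stands above the horizontal line, at rank 1329 in replicate 1 and 5635 in replicate 3, as does the TTLL4A peak near piwi, and the RpS27 peak near bam is the strongest.

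A wider set of 66 genes, grouped by role from textbook knowledge, gave the pathway around these 10, and all 66 matched the annotation. A promoter IDR peak, by the same 1 kb limit, was present at 25 of the 66, and for 20 of the 56 that are not among the 10 (35.7%, against the 26.9% of all genes given above). At 11 of those 20 the peak was also within 1 kb of another coding TSS, against 62% of all genes with a promoter IDR peak. At 8 of the 20 another gene's TSS was nearer, against 30.6%. The 2 largest shares were 5 of 10 for nuclear silencing by Piwi and 7 of 14 for germ plasm and primordial germ cells. Germline stem cell differentiation had 6 of 14, and piRNA cluster transcription and export 3 of 9. Genes of piRNA amplification and nuage had 3 of 12, and those of piRNA end processing 2 of 10. A few genes, vas among them, stand in 2 groups. The groups were chosen with earlier results of these data known, so they are no independent check of the 10 genes. For that reason, and with 9 to 14 genes in each, no test was made.

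In the nuage group the peaks beside that of vas were at papi (signal 449, 288 bp upstream of its TSS) and tej (176), both genes of Tudor-domain proteins and both with no other coding start within 1 kb. In the nuclear silencing group the strongest were at wde (669), a cofactor of the histone H3K9 methyltransferase encoded by egg (216), and at the gene of heterochromatin protein HP1a (309). They were followed by the dynein light chain gene ctp (179). The HP1a gene's peak was 50 bp from the TSS of Ssb-c31a. Several of these genes act in most cells of the fly as well as in the germline.

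In the cluster transcription group, the strongest was at Trf2 (771), a gene of a TBP-related factor, 98 bp from the TSS of lawc, followed by del (120) and the RNA export helicase gene Hel25E (115), whose peak was 99 bp from the TSS of Lam. The end processing peaks were both nearer to a neighbour: that of the helicase gene armi (211) was 130 bp from the TSS of eIF5B, and that of the exonuclease gene Nbr (116) was 50 bp from the TSS of Noc2. The Nbr peak ranked 14402 in replicate 1 and 3738 in replicate 3. Among germ plasm genes wun (370), for a lipid phosphatase that guides germ cell migration, and orb (362), for an RNA-binding translational regulator, were strongest, ahead of gcl and nos, with the orb peak 84 bp from the TSS of Cdc16. In the differentiation group brat (292) was strongest, followed by bgcn, by the deadenylase gene twin (207) and by stwl (191), with the stwl peak 144 bp from the TSS of CG3919.

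**Figure D2:**
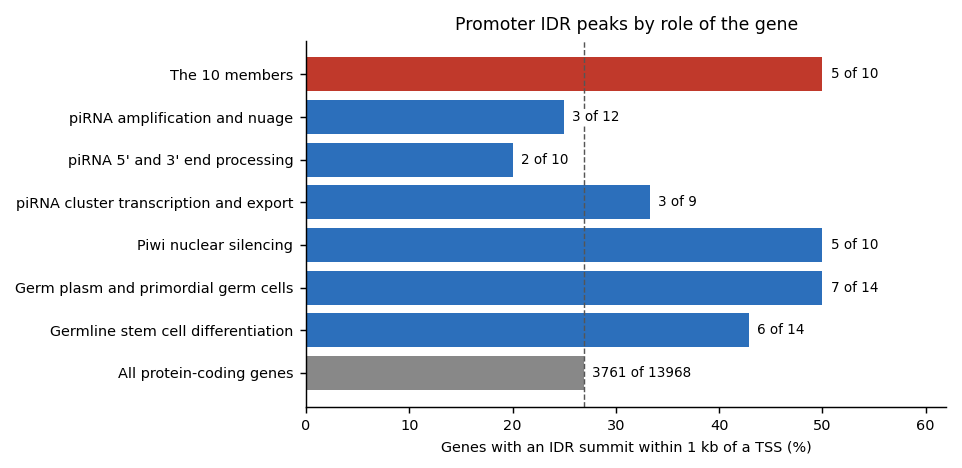
Share of genes with a promoter IDR peak, its summit at most 1 kb from a TSS (x axis, percent) for the 10 germline and piRNA genes, 6 groups of genes by role that include them, and all protein-coding genes. The count of genes is written at each bar, and the dashed line marks the 26.9% of all genes, which 4 of the 6 groups exceed.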

How the data were processed

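The authors deposited 4 peak lists in dm6 coordinates, per the deposited file descriptions: 1 per replicate, 1 from the pooled alignments and the optimal IDR set, with the same control alignment throughout. Each peak has a deposited signal value, which ranks peaks within a list, and a deposited −log10 q-value, which is the same for all IDR peaks and was not used for ranking. The peak caller and IDR threshold: not given in the sources used here. Chromatin had been sonicated to 200 to 800 bp, per the labels. Summits were compared with Ensembl release 115 gene models on the 7 assembled arms. A replicate peak matched a pooled peak when they overlapped by 1 bp, taking the nearest summit. Sequence came from the RefSeq dm6 assembly. Searches were tested on simulated peaks. Python 3.11.15, numpy 2.4.6, pandas 2.3.3 and matplotlib 3.10.9 were used.

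The genes and role groups were chosen with earlier results of these data known. The text names the 10 genes, genes with a TSS within 1 kb of their strongest promoter summits or described IDR summits, and up to 4 genes per role group with the strongest promoter IDR peak. ND-23, Pbp45 and the neighbours of role-group genes fall outside that rule and were named after their values were seen. With 1 group of 2 replicates there is no comparison to test, and no p-value is given.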

Additional observations from a re-analysis of the deposited data

How the results depend on the processing

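Of 26 alternative values of the counts of genes, 22 were within 1.5 times the reported count. That limit is wide for counts out of 10. The count of genes with an IDR summit within 1 kb (5 of 10) was 3 when a summit went only to the nearest TSS (19.5% of all genes). With as many of the strongest peaks of a single replicate, it was 5 in replicate 1, against 26.6% of all genes. In replicate 3 it was 4, against 27.5%, with vas being lost. The count with an IDR summit in the body or within 5 kb (8) was 5 with a 1 kb window, against 28.9% of all genes, and 3 when only the nearest TSS counted, against 22.5%, an alternative chosen after seeing the data. The count with a pooled summit within 1 kb (8) was 5 with a 500 bp window, against 52.2% of all genes. It was 8 with the replicate 1 list alone, against 58.9%, and 9 with the replicate 3 list alone, against 60.2%. Leaving out nos, which was matched by a synonym, left 4 of 9 genes with a promoter IDR peak, against 26.9% of all genes. No paired analysis was possible because there is a single group. Depth is unknown, and the conflict between the assay label and the description as an input control applies to every value.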
